A study of Homo sapiens with 6 samples.

Results

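The 55 genes described here are a set of mitosis and spindle checkpoint genes, taken by symbol from the 26255 genes listed in the expression table. All 55 are listed, and all 55 were among the 16020 genes tested, those that reached 0.1 FPKM in 3 or more of the 6 libraries. FPKM are fragment numbers divided by the length of the transcript and the size of the library, so levels of different genes can be set side by side. The genes were sorted into 9 groups by their known roles: 8 cyclin, CDK1 and CDC25 genes, 3 mitotic kinases, 4 chromosomal passenger genes, 7 spindle checkpoint genes, 9 centromere and kinetochore genes, 4 genes of the anaphase promoting complex and separase, 8 spindle assembly and cytokinesis genes, 10 genes of chromosome structure and cohesin, and 2 transcription factors.

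The RNA came from NCI-H1299 cells, an established human lung cancer line, with 3 libraries of cells that carry a control shRNA (shControl) and 3 libraries of cells that carry an shRNA against Ephexin1 (shEphexin1). Both groups carry a pSilencer2.1-U6 plasmid, in which the U6 promoter drives the shRNA, and both were grown with serum, with no further treatment given in the labels. Ephexin1, encoded by NGEF, is a guanine nucleotide exchange factor, a protein that switches on small GTPases. The question was which transcripts differ when Ephexin1 is depleted. The study selected stable knockdown clones, and the names of the 3 shEphexin1 libraries share a stem, so they may be repeat libraries of 1 clone. The p values then measure the spread between repeat libraries, which may be technical, and a difference between the groups may belong to that clone. The table holds no read numbers, so the depth is unknown and counting error could not be estimated.

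NGEF itself lay between 11.7 and 16.4 FPKM in shControl and between 8.25 and 10.5 FPKM in shEphexin1, which did not overlap. Its fold change was -0.53 ± 0.163 on the log2 scale (SE, limma adjusted p = 0.103, and 0.00284 with the replicate number as a block). Of 4 epithelial markers, the keratins KRT18 (67.6 to 109 FPKM in shControl, 36.3 to 54.7 FPKM in shEphexin1) and KRT8 (5.13 to 8.44 and 2.65 to 3.48 FPKM) were present, and both fell (log2 fold change -0.94 and -1.07, limma adjusted p = 0.0439 and 0.0304). EPCAM and KRT19 stayed at or under 0.220 and 0.185 FPKM. VIM, the mesenchymal filament gene vimentin, was at 1979 to 2334 FPKM in shControl and 2239.9 to 2670.2 FPKM in shEphexin1 (log2 fold change 0.20, limma adjusted p = 0.366, and 0.0187 with the block). Of 7 markers of blood, endothelium or stroma, only CD68 was above 1 FPKM in all libraries (log2 fold change 0.42, limma adjusted p = 0.188, and 0.00169 with the block), PTPRC, CD3E and HBB were listed at 0, and the sum of the 7 was 38.0 to 53.7 FPKM in shControl and 53.7 to 71.6 FPKM in shEphexin1. The part of these markers in the results was not tested.

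Entry into mitosis is driven by CDK1 bound to cyclin B, once CDC25 phosphatases have removed inhibitory phosphates from the kinase. Condensin compacts the chromosomes, the NDC80 complex ties kinetochores to spindle microtubules, and the spindle checkpoint holds back the anaphase promoting complex until all kinetochores are attached. The complex, with CDC20, then marks securin and cyclin B for destruction, separase cuts cohesin, and the cell divides. Most of these genes are transcribed late in the cell cycle, in G2 and mitosis, under FOXM1, MYBL2 and the MuvB complex, and their mRNA is widely used as a measure of proliferation. In a culture of cells at all stages, a lower level may come from fewer cells in G2 and mitosis or from less mRNA in each of those cells, and these cannot be told apart in bulk RNA.

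The promoters of late cell cycle genes are known for a short element, the CHR, to which the MuvB complex binds, and for CCAAT boxes bound by NF-Y. The windows of 250 bases before to 50 bases after the transcription start in RefSeq (build GRCh38.p14) were searched on both strands for TTTGAA, the letters of the CHR, and for CCAAT. Neither motif contains the other. Windows were found for 45 of the 55 genes, and AURKA, BIRC5, BUB3, CENPM, FOXM1, KNTC1, RAD21, TPX2, TTK and UBE2C were not matched. TTTGAA occurred in a window of 29 of the 45 genes (64.4%), against 18.2% of the 27305 genes in the RefSeq table, and CCAAT in 35 of the 45 (77.8%) against 39.7%. Both were found for 22 genes. A match of letters is a description and not a binding site. The 100 bases before the start of 6 of these genes are shown, with TTTGAA and CCAAT in capitals on whichever strand they lie (TTCAAA and ATTGG are the same letters read on the other strand). The 6 were chosen after their values were seen, so that genes of different roles and with different log2 fold changes in shEphexin1 could be compared by eye: ZWINT, chr10:56361274-56361373 on the minus strand (-0.81), NCAPG, chr4:17810879-17810978 on the plus strand (-0.42), CCNB2, chr15:59105046-59105145 on the plus strand (-0.39), PLK1, chr16:23678789-23678888 on the plus strand (-0.27), PRC1, chr15:90994536-90994635 on the minus strand (-0.11), and BUB1B, chr15:40160969-40161068 on the plus strand (-0.045). All are written 5′ to 3′ along the gene.
ZWINT: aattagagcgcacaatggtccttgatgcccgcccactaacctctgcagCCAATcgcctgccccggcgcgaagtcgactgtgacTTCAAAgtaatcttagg
NCAPG: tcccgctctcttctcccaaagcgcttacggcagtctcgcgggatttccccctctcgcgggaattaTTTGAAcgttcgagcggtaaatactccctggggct
CCNB2: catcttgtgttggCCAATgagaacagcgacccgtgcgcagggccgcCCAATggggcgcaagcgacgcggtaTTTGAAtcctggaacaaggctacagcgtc
PLK1: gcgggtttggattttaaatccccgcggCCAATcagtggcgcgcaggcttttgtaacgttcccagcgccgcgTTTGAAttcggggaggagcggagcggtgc
PRC1: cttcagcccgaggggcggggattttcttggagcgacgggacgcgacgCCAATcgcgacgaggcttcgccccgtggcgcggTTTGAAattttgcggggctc
BUB1B: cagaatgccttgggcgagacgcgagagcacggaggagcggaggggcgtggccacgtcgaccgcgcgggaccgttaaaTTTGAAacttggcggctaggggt
Each of the 6 stretches holds 1 match to TTTGAA, while 29 of the 45 genes hold one in a window, so the 6 do not stand for the set. CCNB2 holds 2 matches to CCAAT in this stretch, and NCAPG and BUB1B hold none. The median log2 fold change was -0.12 over the members with TTTGAA and -0.19 over those without it, and -0.16 with CCAAT and -0.11 without it. Of the 20 genes in the table that were lower in the fit with the replicate block described below, 12 held TTTGAA and 16 held CCAAT, against 17 and 19 of the 25 that were not. Of the 5 in the table that were lower at an adjusted p up to 0.05 without the block, 3 held TTTGAA and 5 held CCAAT. Whether either motif goes with the size of the difference was not tested.

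All 55 genes were well expressed. The mean over the 6 libraries ran from 8.61 FPKM for NCAPH to 273 FPKM for PTTG1 with a median of 54.2 FPKM, and each gene lay above the median of the genes tested. Summed over the 55 genes, the level was 4545, 4695 and 4537 FPKM in shControl against 3742, 4104 and 3695 FPKM in shEphexin1. The groups did not overlap, and the mean of shEphexin1 (3847 ± 224 FPKM, SD, n = 3) was 83.8% of that of shControl (4592.5 ± 89.2 FPKM, SD, n = 3). The summed FPKM of all genes was also lower in shEphexin1 in each numbered pair. It was 627462, 561335 and 651441 in shControl against 558737, 516079 and 587222 in shEphexin1. The share of this sum in the 55 genes did overlap, at 0.724%, 0.836% and 0.696% in shControl and 0.670%, 0.795% and 0.629% in shEphexin1. This share was lower in shEphexin1 in each numbered pair.

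**Figure D1:**
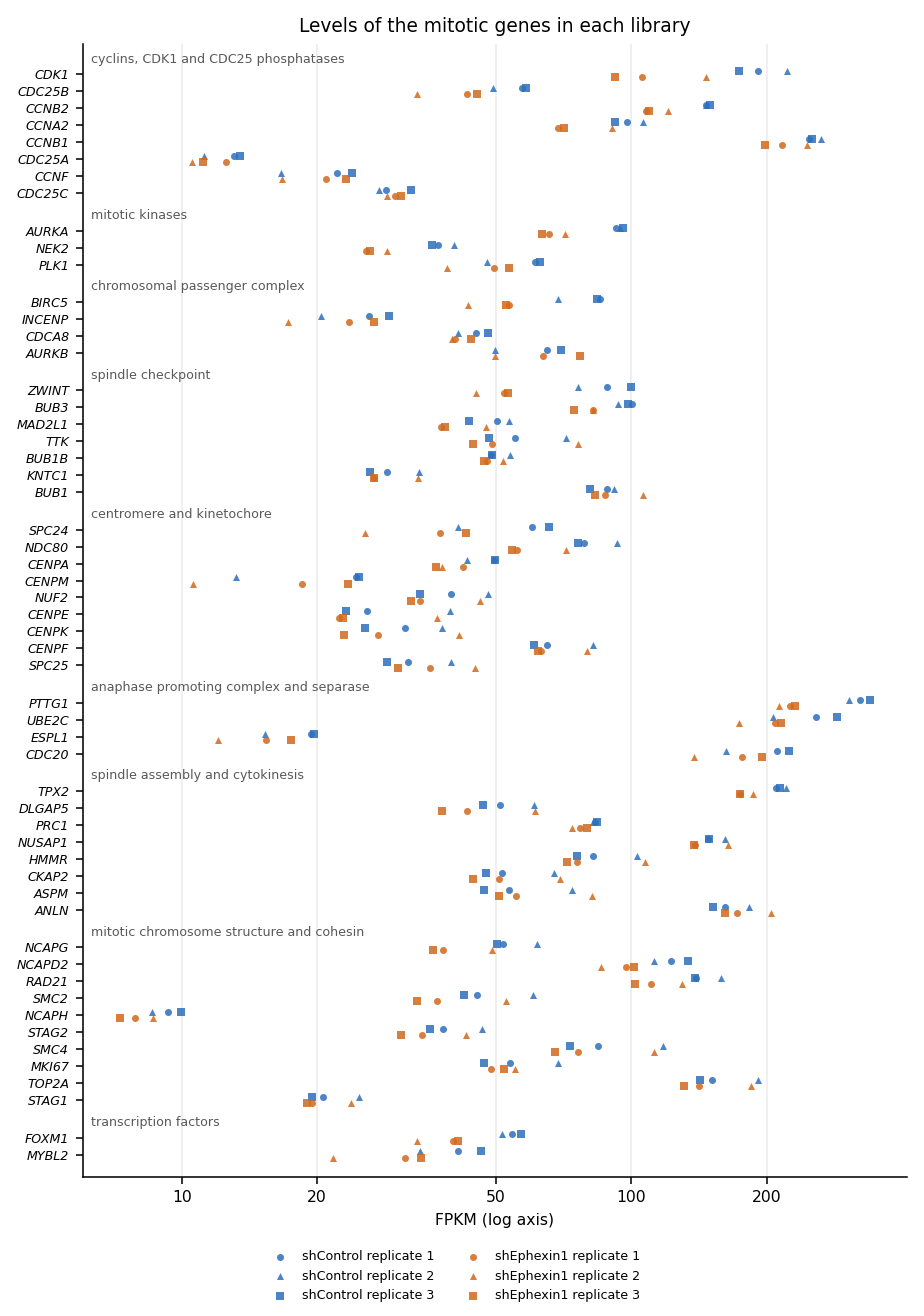
Level of each of the 55 mitotic genes in the 6 libraries, in FPKM on a log axis, with shControl libraries in blue, shEphexin1 libraries in orange and the replicate number shown by the marker. Genes are grouped by role and ordered by log2 fold change. In ZWINT, CDK1, BIRC5 and PTTG1 the 3 orange points lie left of the 3 blue ones, and in many genes replicate 2 of both groups (triangles) stands to one side.

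No gene of the set differed by 2-fold. At the thresholds of the study, 2-fold or more and an adjusted p up to 0.025, limma called 0 of the 55 genes, against 1.89% of the genes tested. At an unadjusted p up to 0.05, 19 were lower (12.8% of the genes tested were) and 0 were higher (10.5% were). Without the fold limit, at an adjusted p up to 0.05, 8 of the 55 fell in shEphexin1 (14.5%, against 4.32% of the genes tested) and 0 rose (against 2.69%). The 8 were ZWINT, CDK1, BIRC5, PTTG1, FOXM1, AURKA, NEK2 and CCNB2. The fitted log2 fold change was negative for 49 genes (51.1% of the genes tested were negative) and positive for 6. Its median was -0.22, against -0.0093 over all genes tested. The median stayed negative under median centring (-0.21) and quantile normalization (-0.085, with 38 negative and 17 positive). With quantile normalization, 2 of the 55 were lower at an adjusted p up to 0.05, near the share over all genes (498 of 16020).

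The number of calls changed when 1 library was left out, and so did the number over all genes tested, of which 692 were lower with all 6 libraries. The log2 fold changes of the 8 stayed negative in each of these fits. No gene was called lower when replicate 1 or 3 of shControl, or replicate 1 or 3 of shEphexin1, was left out (12 to 13 were lower at an unadjusted p up to 0.05, and 87 to 202 of all genes tested were called lower). Without shControl replicate 2 there were 3 calls (395 of all genes tested were called lower). Without shEphexin1 replicate 2 there were 10 (791 of all genes tested). Libraries with the same replicate number deviated from their group means together, and with that number as a block in the fit, 28 of the 55 were lower and 0 higher. This count is read against a background that grew as well, to 19.7% lower and 13.8% higher of all genes tested. The levels of 19 genes did not overlap between the groups, all lower in shEphexin1 (34.5%, against 15.4% of the genes tested, of which 12.8% were higher without overlap). Within the numbered pairs, 38 genes were lower in all 3 (69.1%, against 33% of the genes tested), 3 were higher in all 3 (against 29.4%), and 14 were mixed.

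**Figure D2:**
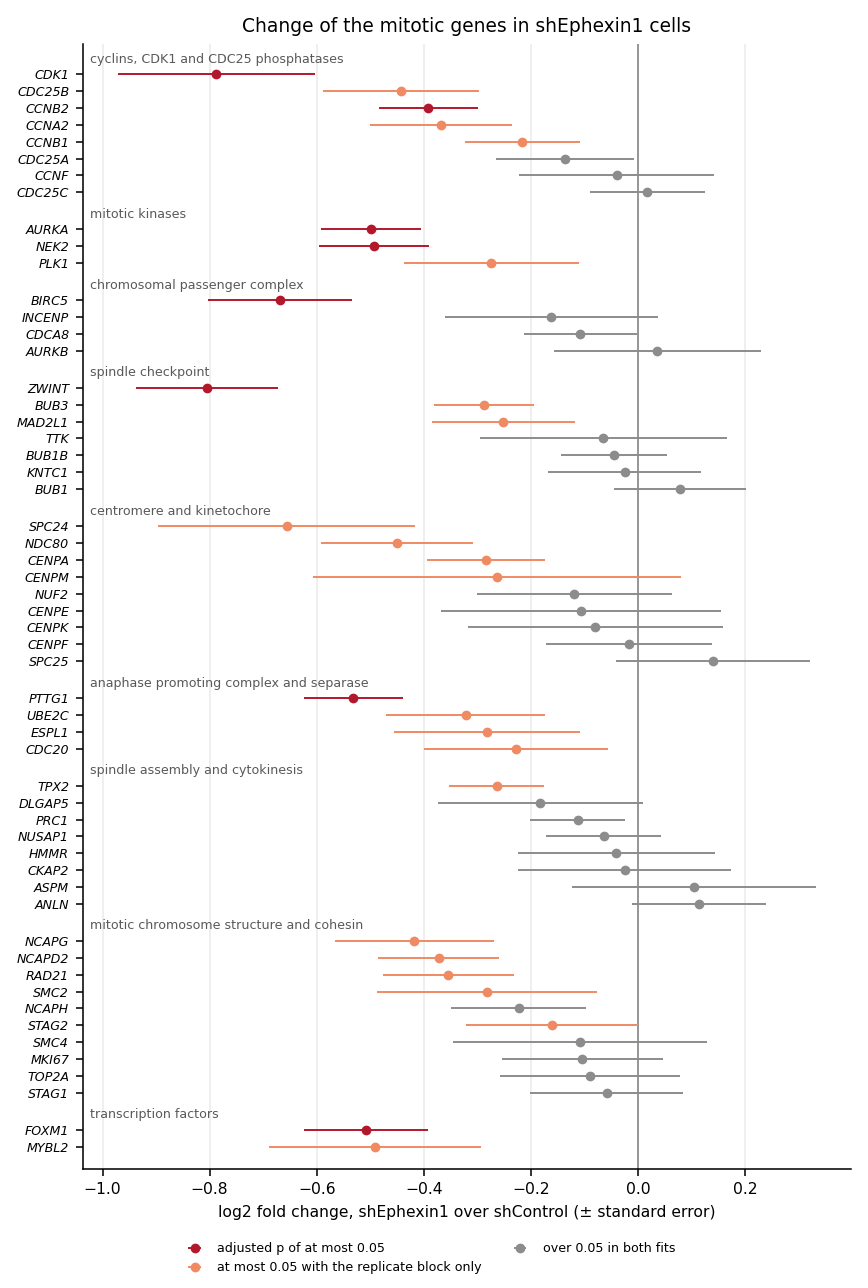
Log2 fold change of the 55 genes in shEphexin1 over shControl (x axis) with the standard error of the limma fit as bars. The 8 genes past an adjusted p of 0.05 are dark red, the 20 that reached this only with the replicate block are orange, and the other 27 are grey, and 49 points lie left of 0.

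Among the genes that start mitosis, the kinase itself showed the greatest difference. CDK1 (chromosome 10, 62538089 to 62554610, plus strand, GRCh37) was at 191, 222 and 174 FPKM in shControl against 106, 147 and 92.2 FPKM in shEphexin1. All shEphexin1 libraries lay below all shControl libraries, although replicate 2 was the highest in both groups (196 ± 24.5 against 115 ± 28.3 FPKM (SD, n = 3 each)). For CDK1 the fold change was -0.79 ± 0.184 on the log2 scale (SE, limma adjusted p = 0.0479). CCNB2, a B-type cyclin that binds CDK1 (chromosome 15, 59397325 to 59417244, plus strand), was at 146, 147 and 149.6 FPKM in shControl against 108, 121 and 109 FPKM in shEphexin1. Its shControl values lay close together, and the mean of shEphexin1 was 76.3% of theirs (148 ± 1.74 against 113 ± 7.02 FPKM (SD, n = 3 each)). CCNB2 had a fold change of -0.39 ± 0.0920 on the log2 scale (SE, limma adjusted p = 0.0485). The other B-type cyclin, CCNB1, was at 249, 264 and 252 FPKM in shControl against 216, 246 and 199 FPKM in shEphexin1, without overlap but not past the threshold. In the fit, CCNB1 had a fold change of -0.22 ± 0.108 on the log2 scale (SE, limma adjusted p = 0.283, and 0.0243 with the block). CCNA2, the cyclin A of S and G2 phase, also separated the groups at 97.8, 106 and 92.0 FPKM in shControl against 68.9, 90.6 and 71.0 FPKM in shEphexin1. For CCNA2 the fold change was -0.37 ± 0.132 on the log2 scale (SE, limma adjusted p = 0.1498, and 0.00546 with the block).

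None of the 3 CDC25 phosphatases passed the test without the block. CDC25B, known as a starter of CDK1 activation at the centrosome, was at 57.2, 49.2 and 58.2 FPKM in shControl against 43.1, 33.3 and 45.3 FPKM in shEphexin1, without overlap. CDC25B had a fold change of -0.44 ± 0.145 on the log2 scale (SE, limma adjusted p = 0.120, and 0.00196 with the block). CDC25A had a log2 fold change of -0.14 (adjusted p = 0.587) and CDC25C one of 0.017 (adjusted p = 0.950), and in both the groups overlapped. Whether the 3 differ from each other was not tested. CCNF, the F-box cyclin of a ubiquitin ligase, had -0.040 (adjusted p = 0.928). Of the 8 genes of this group, 2 fell by the adjusted p, 5 were lower with the block and 6 were lower in all 3 numbered pairs. Their median log2 fold change was -0.29. Of the genes tested at or above the level of the lowest of the 55, 5.47% fell by the adjusted p. With the block 31.5% of those genes were lower, and 45.8% were lower in all 3 numbered pairs. The groups by role are small, and their counts here and below are not read as results about a role.

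Of the 3 mitotic kinases, 2 fell. AURKA (chromosome 20, 54944445 to 54967393, minus strand), which drives centrosome maturation and spindle assembly, was at 92.5, 94.4 and 96.0 FPKM in shControl against 65.7, 71.3 and 63.5 FPKM in shEphexin1. Its shControl libraries lay close together and each shEphexin1 library was well below them (94.3 ± 1.73 against 66.8 ± 4.01 FPKM (SD, n = 3 each)). In the fit, AURKA had a fold change of -0.50 ± 0.0932 on the log2 scale (SE, limma adjusted p = 0.0257). NEK2 (chromosome 1, 211831999 to 211848972, minus strand), which parts the centrosomes at the start of mitosis, was at 37.1, 40.3 and 36.0 FPKM in shControl against 25.7, 28.6 and 26.2 FPKM in shEphexin1 (37.8 ± 2.22 against 26.8 ± 1.52 FPKM (SD, n = 3 each)). For NEK2 the fold change was -0.49 ± 0.103 on the log2 scale (SE, limma adjusted p = 0.0354). PLK1, which acts from mitotic entry to cytokinesis, was at 60.97, 47.8 and 62.8 FPKM in shControl against 49.6, 38.9 and 53.6 FPKM in shEphexin1, with overlap. PLK1 had a fold change of -0.27 ± 0.163 on the log2 scale (SE, limma adjusted p = 0.372, and 0.00456 with the block). In all 3 kinases, each shEphexin1 library was below the shControl library of the same number, as in 45.8% of the genes at or above the lowest of the 55.

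In the chromosomal passenger complex, which corrects faulty attachments at centromeres, 1 of the 4 genes fell. BIRC5, or survivin (chromosome 17, 76210267 to 76221717, plus strand), was at 85.2, 68.7 and 84.0 FPKM in shControl against 53.5, 43.2 and 52.8 FPKM in shEphexin1 (79.3 ± 9.18 against 49.8 ± 5.73 FPKM (SD, n = 3 each)). In the fit, BIRC5 had a fold change of -0.67 ± 0.135 on the log2 scale (SE, limma adjusted p = 0.0326). The log2 ratios of its 3 numbered pairs were -0.67, -0.67 and -0.67. AURKB, the kinase of the complex, was at 65.1, 49.7 and 69.9 FPKM in shControl against 63.6, 49.7 and 76.9 FPKM in shEphexin1, a range that overlapped throughout. For AURKB the fold change was 0.036 ± 0.193 on the log2 scale (SE, limma adjusted p = 0.941). INCENP, the scaffold, had a log2 fold change of -0.16 (adjusted p = 0.687), and CDCA8, or borealin, one of -0.11 (adjusted p = 0.598).

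The spindle checkpoint genes were spread from the most negative log2 fold change of the 55 to 1 of the 5 most positive. ZWINT, which holds the RZZ complex at the kinetochore (chromosome 10, 58116988 to 58121034, minus strand), was at 88.2, 76.0 and 100.05 FPKM in shControl against 52.2, 45.2 and 53.1 FPKM in shEphexin1. The highest shEphexin1 library was well below the lowest shControl library (88.1 ± 12.02 against 50.2 ± 4.35 FPKM (SD, n = 3 each)). ZWINT had a fold change of -0.81 ± 0.132 on the log2 scale (SE, limma adjusted p = 0.0175). MAD2L1, which binds CDC20 to stop the anaphase promoting complex, was at 50.4, 53.3 and 43.5 FPKM in shControl against 37.8, 47.5 and 38.6 FPKM in shEphexin1, with overlap. In the fit, MAD2L1 had a fold change of -0.25 ± 0.134 on the log2 scale (SE, limma adjusted p = 0.315, and 0.0243 with the block). BUB3, which recruits BUB1 and BUB1B to the kinetochore, was at 100.2, 93.5 and 98.1 FPKM in shControl against 82.3, 82.1 and 74.7 FPKM in shEphexin1, without overlap. For BUB3 the fold change was -0.29 ± 0.0938 on the log2 scale (SE, limma adjusted p = 0.119, and 0.00745 with the block). The kinases BUB1 and TTK, the pseudokinase BUB1B and the RZZ subunit KNTC1 had log2 fold changes of 0.078, -0.065, -0.045 and -0.025, with adjusted p from 0.763 to 0.945 and 0.316 to 0.726 with the block. BUB1 was at 88.2, 91.5 and 81.0 FPKM in shControl against 87.2, 106 and 82.9 FPKM in shEphexin1, with the highest library in shEphexin1 replicate 2 and a standard error of 0.123 on its log2 fold change. Of the 7 genes, 1 fell, 3 were lower with the block, and the median was -0.065. With the block, 31.5% of the genes at or above the lowest of the 55 were lower.

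The 9 centromere and kinetochore genes gave 0 calls by the adjusted p. With the block 4 were lower, against 31.5% of the genes at or above the lowest of the 55. The 4 subunits of the NDC80 complex had log2 fold changes of both signs. SPC24 (chromosome 19, 11242196 to 11266483, minus strand) was at 60.1, 41.1 and 65.6 FPKM in shControl against 37.6, 25.6 and 42.9 FPKM in shEphexin1, with overlap through replicate 2 of shControl, which lay below shEphexin1 replicate 3 (55.6 ± 12.8 against 35.4 ± 8.87 FPKM (SD, n = 3 each)). SPC24 had a fold change of -0.66 ± 0.240 on the log2 scale (SE, limma adjusted p = 0.156). The log2 ratios of its numbered pairs were -0.68, -0.68 and -0.61, and the adjusted p was 3.25e-04 with the block. NDC80 was at 78.4, 92.8 and 76.2 FPKM in shControl against 55.8, 71.7 and 54.2 FPKM in shEphexin1, without overlap. In the fit, NDC80 had a fold change of -0.45 ± 0.143 on the log2 scale (SE, limma adjusted p = 0.110, and 0.00103 with the block). NUF2, the partner of NDC80 at the microtubule end, had a log2 fold change of -0.12 (adjusted p = 0.753). SPC25, the partner of SPC24, was at 31.8, 39.6 and 28.6 FPKM in shControl against 35.7, 44.8 and 30.2 FPKM in shEphexin1, higher in each numbered pair but overlapping. For SPC25 the fold change was 0.14 ± 0.181 on the log2 scale (SE, limma adjusted p = 0.704, and 0.0619 with the block). Whether the subunits differ from each other was not tested.

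CENPA, the histone H3 variant that marks centromeres, was at 49.6, 43.1 and 49.7 FPKM in shControl against 42.1, 37.8 and 36.8 FPKM in shEphexin1, without overlap. CENPA had a fold change of -0.28 ± 0.111 on the log2 scale (SE, limma adjusted p = 0.179, and 0.0141 with the block). CENPM, a subunit of the inner kinetochore, was at 24.4, 13.2 and 24.7 FPKM in shControl against 18.5, 10.6 and 23.4 FPKM in shEphexin1, where replicate 2 was the lowest library in both groups. In the fit, CENPM had a fold change of -0.26 ± 0.343 on the log2 scale (SE, limma adjusted p = 0.705, and 0.0384 with the block). The motor CENPE, CENPF and the inner kinetochore subunit CENPK had log2 fold changes of -0.11, -0.017 and -0.080, all with adjusted p over 0.8 and over 0.1 with the block.

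All 4 genes that end mitosis were lower in all 3 numbered pairs, as were 45.8% of the genes at or above the lowest of the 55. By the adjusted p, 1 of the 4 fell. PTTG1, or securin, the inhibitor of separase (chromosome 5, 159848862 to 159855746, plus strand), was the most abundant of the 55 at 323, 306 and 339 FPKM in shControl against 225, 213 and 231 FPKM in shEphexin1. The gap between the groups was wider than the range within either (323 ± 16.7 against 223 ± 9.41 FPKM (SD, n = 3 each)). For PTTG1 the fold change was -0.53 ± 0.0928 on the log2 scale (SE, limma adjusted p = 0.0205). UBE2C, the ubiquitin-conjugating enzyme of the anaphase promoting complex, was at 257, 207 and 287 FPKM in shControl against 208, 174 and 215 FPKM in shEphexin1. UBE2C had a fold change of -0.32 ± 0.149 on the log2 scale (SE, limma adjusted p = 0.248, and 0.00323 with the block). CDC20, its activator, was at 211, 163 and 224 FPKM in shControl against 177, 138 and 195 FPKM in shEphexin1. In the fit, CDC20 had a fold change of -0.23 ± 0.172 on the log2 scale (SE, limma adjusted p = 0.486, and 0.0053 with the block). ESPL1, or separase, was at 19.4, 15.3 and 19.7 FPKM in shControl against 15.4, 12.1 and 17.5 FPKM in shEphexin1. For ESPL1 the fold change was -0.28 ± 0.173 on the log2 scale (SE, limma adjusted p = 0.388, and 0.0167 with the block). In UBE2C, CDC20 and ESPL1 the groups overlapped because replicate 2 was the lowest library in each group.

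The 8 spindle assembly and cytokinesis genes differed least, with a median log2 fold change of -0.053 and 0 calls by the adjusted p. TPX2, which activates AURKA on the spindle, was at 209.6, 221 and 214 FPKM in shControl against 175, 187 and 175 FPKM in shEphexin1, without overlap. TPX2 had a fold change of -0.26 ± 0.0879 on the log2 scale (SE, limma adjusted p = 0.125, and 0.00316 with the block). PRC1, which bundles the microtubules of the spindle midzone, was at 82.9, 82.2 and 84.0 FPKM in shControl against 76.8, 73.9 and 79.8 FPKM in shEphexin1, also without overlap. In the fit, PRC1 had a fold change of -0.11 ± 0.0886 on the log2 scale (SE, limma adjusted p = 0.510, and 0.0724 with the block). ANLN, or anillin, a scaffold of the contractile ring, was at 162, 182 and 152 FPKM in shControl against 172, 204 and 162 FPKM in shEphexin1, and ASPM, which acts at the spindle poles, at 53.4, 73.7 and 47.0 FPKM in shControl against 55.5, 81.9 and 50.7 FPKM in shEphexin1. Both overlapped but were higher in each numbered pair. For ANLN the fold change was 0.11 ± 0.125 on the log2 scale (SE, limma adjusted p = 0.651). ASPM had a fold change of 0.10 ± 0.228 on the log2 scale (SE, limma adjusted p = 0.838). DLGAP5 had a log2 fold change of -0.18, NUSAP1 of -0.064, HMMR of -0.041 and CKAP2 of -0.025, all microtubule-associated proteins of the spindle, with adjusted p from 0.631 to 0.960.

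Among 10 genes of chromosome structure and cohesin, 0 were called by the adjusted p. With the block 5 were lower, against 31.5% of the genes at or above the lowest of the 55. In all 3 numbered pairs 8 were lower, against 45.8% of those genes. All 5 condensin genes had a negative log2 fold change: -0.42 for NCAPG, -0.37 for NCAPD2, -0.28 for SMC2, -0.22 for NCAPH and -0.11 for SMC4. NCAPG was at 51.9, 61.8 and 50.3 FPKM in shControl against 38.1, 48.9 and 36.2 FPKM in shEphexin1 (adjusted p = 0.146, and 0.00157 with the block), and NCAPD2 at 123, 112 and 134 FPKM in shControl against 97.6, 85.8 and 101 FPKM in shEphexin1 (adjusted p = 0.0994, and 0.00119 with the block). In both, the groups did not overlap. SMC2 overlapped at 45.4, 60.5 and 42.5 FPKM in shControl against 36.9, 52.7 and 33.4 FPKM in shEphexin1 (adjusted p = 0.470, and 0.00675 with the block), and SMC4, the ATPase subunit that pairs with SMC2, had an adjusted p of 0.839 (0.0789 with the block).

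RAD21, the cohesin subunit that separase cuts, was at 139, 159 and 138 FPKM in shControl against 111, 129.8 and 102 FPKM in shEphexin1, without overlap. In the fit, RAD21 had a fold change of -0.35 ± 0.122 on the log2 scale (SE, limma adjusted p = 0.136, and 0.00222 with the block). The cohesin subunits STAG2 and STAG1 had log2 fold changes of -0.16 and -0.059 (adjusted p = 0.609 and 0.857, and 0.0373 and 0.401 with the block). MKI67, which encodes the proliferation marker Ki-67, was at 53.8, 68.6 and 47.1 FPKM in shControl against 48.8, 55.1 and 52.0 FPKM in shEphexin1. The 2 groups overlapped and the numbered pairs did not go 1 way, with log2 ratios of -0.14, -0.32 and 0.14. For MKI67 the fold change was -0.10 ± 0.1501 on the log2 scale (SE, limma adjusted p = 0.736). TOP2A, which untangles sister DNA, was at 152, 191 and 142 FPKM in shControl against 141, 185 and 131 FPKM in shEphexin1. TOP2A had a fold change of -0.089 ± 0.168 on the log2 scale (SE, limma adjusted p = 0.807).

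Both transcription factors of the set were lower in all 3 numbered pairs, as were 45.8% of the genes at or above the lowest of the 55. FOXM1 (chromosome 12, 2966846 to 2986340, minus strand), which drives late cell cycle transcription, was at 54.2, 51.6 and 56.9 FPKM in shControl against 40.2, 33.4 and 41.1 FPKM in shEphexin1, without overlap (54.3 ± 2.64 against 38.2 ± 4.23 FPKM (SD, n = 3 each)). In the fit, FOXM1 had a fold change of -0.51 ± 0.116 on the log2 scale (SE, limma adjusted p = 0.0439). MYBL2, or B-Myb, the partner of MuvB, was at 41.2, 33.8 and 46.3 FPKM in shControl against 31.5, 21.7 and 34.1 FPKM in shEphexin1. In MYBL2 the lowest shControl library was replicate 2, just under shEphexin1 replicate 3, and the test was not passed. For MYBL2 the fold change was -0.49 ± 0.198 on the log2 scale (SE, limma adjusted p = 0.193, and 0.00232 with the block).

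Replicate 2 of both groups stood apart from replicates 1 and 3, and it set much of the spread of these genes. Over the genes expressed at a mean of at least 1 FPKM, its deviation from the group mean fell with the GC content of the transcript (Spearman's rank correlation across genes, which are not independent, -0.797 in shControl and -0.867 in shEphexin1). Among the 16 mitotic genes with a GC content of at least 50%, the median deviation of replicate 2 was -0.25 in shControl and -0.27 in shEphexin1 on the log2 scale, and among the 39 with less it was 0.18 and 0.21. The median standard error of the 55 log2 fold changes was 0.145 without the block and 0.0485 with it. With replicates 1 and 3 alone, 19 of the 55 were lower and 0 higher (34.5%, against 10.4% of the genes tested lower), and with a loess correction for GC content and transcript length, 21 were lower (17% of the genes tested were) and 1, ANLN, was higher (13.6% were).

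**Figure D3:**
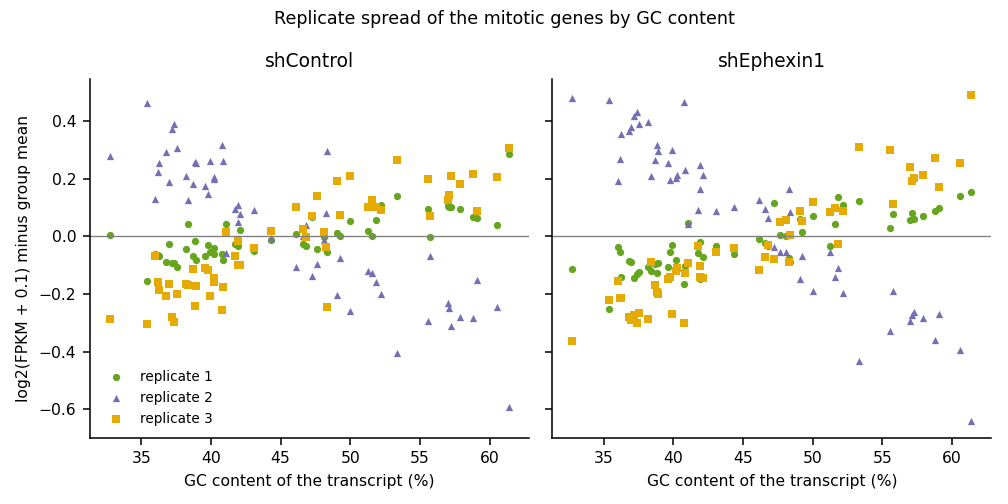
Deviation of each mitotic gene from the mean of its group, on the log2(FPKM + 0.1) scale, against the GC content of its transcript, for shControl (left) and shEphexin1 (right). Replicate 2 (purple triangles) runs from above 0 at low GC to below 0 at high GC in both groups, opposite to replicates 1 and 3.

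The set is highly expressed, and highly expressed genes were lower in shEphexin1 in general. The median log2 fold change was -0.071 over the 7278 genes at or above the lowest of the 55. Of these genes 5.47% were lower at an adjusted p up to 0.05, 31.5% were lower with the block and 45.8% were lower in all 3 numbered pairs. Lower without overlap were 19.7% of these genes, against 34.5% of the 55. Over the 1424 genes that averaged 50 FPKM or more the median was -0.18, against -0.22 for the 30 mitotic genes at that level. For the 25 mitotic genes below that level the median was -0.16. All genes tested at 5 to 10, 10 to 20 and 20 to 50 FPKM had medians of -0.016, -0.037 and -0.067. Of the genes at 50 FPKM or more, 11.6% were lower at an adjusted p up to 0.05, and 6 of the 30 mitotic genes were (20%). With the block the shares were 52.9% of these genes and 16 of the 30 (53.3%), and 31.5% of these genes and 14 of the 30 (46.7%) were lower without overlap. In all 3 numbered pairs, 62.6% of these genes and 19 of the 30 (63.3%) were lower. At this level the shares lower with the block and in all 3 pairs were near the background, and these 16 are not read as a result about mitotic genes. Of the 25 mitotic genes under 50 FPKM, 2 were lower at an adjusted p up to 0.05 (8%), 12 with the block (48%) and 19 in all 3 pairs (76%), against 3.98%, 26.3% and 41.7% of the 5854 genes from the lowest of the 55 to 50 FPKM. Lower without overlap were 5 of the 25 (20%), near the 16.8% of the 5854 genes. The part of level in the differences was not tested further.

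**Figure D4:**
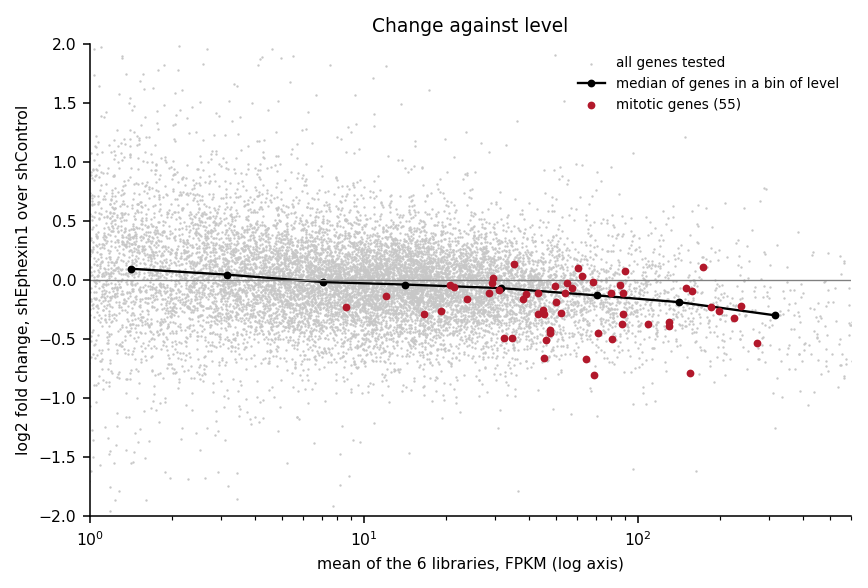
Log2 fold change in shEphexin1 over shControl against the mean of the 6 libraries (log axis), with all genes tested from 1 FPKM up and within 2 log2 units in grey and the 55 mitotic genes in red. The black line joins the median of all genes in bins of level, which passes from 0.096 at 1 to 2 FPKM to -0.30 at 200 to 500 FPKM.

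Whole chromosome arms also differed between the groups, and mitotic genes lie on some of them. The lowest medians among genes that averaged 1 FPKM or more were those of 18p (-0.46 over 49 genes), 18q (-0.44 over 124), 12p (-0.43 over 170) and 10q (-0.30 over 354), and 7q was at 0.30 over 409. The arm 10q was added after its values were seen. NDC80 lies on 18p, FOXM1 and NCAPD2 on 12p, and ZWINT, CDK1, BUB3 and MKI67 on 10q, while none of the 55 lies on 18q or 7q. The 16 mitotic genes on arms with a median under -0.2 had a median of -0.41 and held 5 of the 8 calls, and the other 39 had a median of -0.12 and held 3. Once the arm median, relative to that of all genes, was subtracted, PTTG1 (-0.60, adjusted p = 0.0175), NEK2 (-0.52, 0.0401) and CCNB2 (-0.43, 0.0490) passed the threshold (2.25% of the genes tested were lower). ZWINT was then at -0.54 (0.0697), CDK1 at -0.52, BIRC5 at -0.49, AURKA at -0.31 and FOXM1 at -0.11. NDC80 was at -0.030, BUB3 at -0.019, NCAPD2 at 0.023 and MKI67 at 0.16.

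The genes within 5 Mb of a member, with a mean of at least 1 FPKM, were compared with it. Around ZWINT, 11 neighbours had a median log2 fold change of -0.82, as low as ZWINT itself (-0.81), and around CDK1, 16 neighbours had -0.62 against -0.79. FOXM1 (-0.51) stood among 60 neighbours at -0.38, NDC80 (-0.45) among 21 at -0.42, NCAPG (-0.42) among 18 at -0.42 and RAD21 (-0.35) among 13 at -0.42. Among others, MKI67 (-0.10), SMC2 (-0.28) and BUB3 (-0.29) had neighbours with lower medians than their own values, at -0.36, -0.36 and -0.34. The neighbours were closer to 0 around SPC24 (0.047, 179 genes), NEK2 (-0.035, 34 genes), CCNB2 (-0.061, 39 genes), PTTG1 (-0.15, 20 genes), AURKA (-0.20, 26 genes) and BIRC5 (-0.30, 136 genes). Gene copy number was not measured, and the part of position in these differences was not tested.

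**Figure D5:**
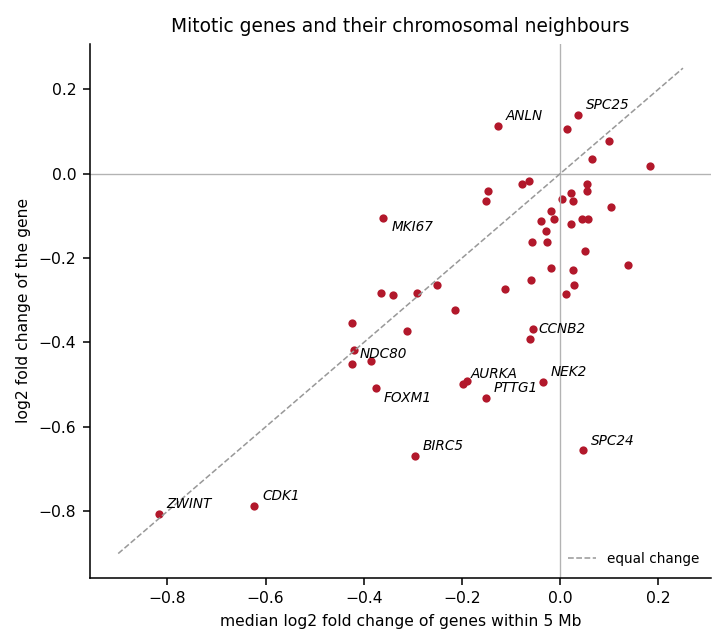
Log2 fold change of each of the 55 mitotic genes (y axis) against the median log2 fold change of the genes that start within 5 Mb of it (x axis), with the line of equal change dashed. ZWINT lies near the line, CDK1 below it, and SPC24, NEK2 and CCNB2 lie far below it with neighbours near 0. PTTG1 also lies far below the line, with neighbours at -0.15.

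The fitted log2 fold change was negative for 61 of 81 other mitotic genes (75.3%, against 51.1% of the genes tested and 60.8% of those at or above the lowest of the 55). They are a list of further kinetochore, spindle, condensin and anaphase promoting complex genes that was also written with earlier results of these data known. All 81 were tested, the median was -0.13, 5 fell at an adjusted p up to 0.05 (6.17%, against 4.32% of the genes tested) and 0 rose (against 2.69%; 14 were lower and 1 higher at an unadjusted p up to 0.05). With the replicate block 34 were lower (42%, against 19.7%) and 6 higher (7.41%, against 13.8%). Of the genes at or above the lowest of the 55, 31.5% were lower and 15.9% higher with the block. Without the block, 5.47% of those genes were lower at an adjusted p up to 0.05. Some of the 81 lie below that level. ANAPC11, the RING subunit of the anaphase promoting complex, was at 49.3, 37.9 and 54.9 FPKM in shControl against 24.7, 20.3 and 26.6 FPKM in shEphexin1. ANAPC11 had a fold change of -0.98 ± 0.171 on the log2 scale (SE, limma adjusted p = 0.0205). SKA2, of the complex that couples kinetochores to microtubule ends, was at 46.0, 51.9 and 41.6 FPKM in shControl against 23.9, 30.1 and 20.2 FPKM in shEphexin1. In the fit, SKA2 had a fold change of -0.92 ± 0.166 on the log2 scale (SE, limma adjusted p = 0.0224). CKS2, which binds CDK1, was at 236, 213 and 229 FPKM in shControl against 140.3, 151 and 129.6 FPKM in shEphexin1. For CKS2 the fold change was -0.69 ± 0.101 on the log2 scale (SE, limma adjusted p = 0.0124). In all 3 the groups did not overlap. After the arm medians were subtracted, their log2 fold changes were -0.80, -0.75 and -0.65 (limma adjusted p = 0.0478, 0.0539 and 0.0175), so SKA2 no longer passed 0.05. None of the 81 was called lower when shControl replicate 1, shControl replicate 3 or shEphexin1 replicate 1 was left out, and 1 to 7 were when 1 of the other libraries was.

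Of the 55 genes, 17 share exonic positions with another listed gene, 13 of them on the opposite strand only. The strand setting of the counting is not given in the sources used here, so reads of an antisense partner cannot be told apart from those of the gene. Among the genes named above, FOXM1 overlaps ITFG2 and NCAPG overlaps LCORL, each on the opposite strand. BUB1B and PAK6, CENPA and SLC35F6, NUSAP1 and OIP5-AS1, and RAD21 and MIR3610 overlap on the same strand, and the values of these 4 are uncertain for that reason.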

How the data were processed

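Total RNA of 6 H1299 cultures was isolated with TRIzol, treated with DNase I and made into stranded total RNA libraries, which were sequenced on an Illumina NovaSeq instrument. The authors used TopHat 2.0.13 on GRCh37/hg19 and then Cuffdiff (Cufflinks 2.2.1), which gave 1 FPKM value for each gene and library, with geometric library normalization and pooled dispersion. The gene annotation used for the FPKM is not given in the sources used here. The submitters' processing notes also name bcl2fastq 2.20 and Bowtie. The deposited FPKM hold no read counts, and the depth is unknown. All 6 value columns were assigned by library name, and 0 were left out.

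The 16020 genes that reached 0.1 FPKM in 3 or more libraries (10235 did not) were compared as log2(FPKM + 0.1), shEphexin1 against shControl, with limma 3.58.1 (lmFit, eBayes with trend) in R 4.3.3 and Benjamini-Hochberg adjustment over all of them. A fold change on this scale understates the change of low genes. The pipeline was tested on simulated data. Python 3.11.15, pandas 2.3.3, scipy 1.17.1 and matplotlib 3.10.9 were used for tables and plots. Positions, and the length and GC content of the longest transcript, came from GENCODE release 44 on GRCh37, which matched 23746 of 26253 distinct names, 1324 of them by an older symbol from RefSeq. Arms were divided at the longest gap of each chromosome.

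Libraries with the same replicate number were taken as pairs, because their deviations from the group means correlated over genes. The correlations were r = 0.234, 0.639 and 0.513 for numbers 1, 2 and 3. Between different numbers r ran from -0.569 to 0.149, the highest for shControl 3 with shEphexin1 1, so number 1 is the least clear pair. The pairing comes from the data, since the labels give only the number. The fit with this block is given beside results where it changes the call. The members, their roles, the other lists and the tests were chosen with earlier results of these data known. Full statistics were given for members past an adjusted p of 0.05 and for the 5 largest increases and 5 largest decreases; of the other lists, for genes called at the thresholds of the study and at most the 3 largest changes per direction among those past an adjusted p of 0.05. The 19 alternatives were quantile normalization, median centring, a pseudocount of 0.01 or 1 FPKM, a filter at 1 FPKM or none, eBayes with no trend, the replicate block, a term for replicate 2, replicates 1 and 3 alone, loess correction for GC content and length with and without the block, subtraction of arm medians, and each library left out. Promoter windows came from RefSeq (GRCh38.p14), and their coordinates were not mixed with those on GRCh37.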

Additional observations from a re-analysis of the deposited data

How the results depend on the processing

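The FPKM carry no counts, so neither depth nor counting error could be weighed, and with 3 libraries a group that may come from 1 clone each, the calls rest on the spread between these libraries. The count of 0 members called at an adjusted p of 0.025 and 2-fold was 0 under all 19 alternatives. The 8 members lower at an adjusted p of 0.05 became 28 with the replicate block, 26 with a term for replicate 2, 19 with replicates 1 and 3 alone, 21 with the GC and length loess and 25 with it and the block, but 5 with median centring, 3 with arm medians subtracted, 2 with quantile normalization and 1 without the trend. Of the 16020 genes tested, 2734 were lower with the term for replicate 2. The number was 641 with median centring, 361 with arm medians subtracted, 498 with quantile normalization and 510 without the trend. With the loess and the block, 3127 of 15210 genes were lower. The 2 with quantile normalization and the 1 without the trend are not read as a result about mitotic genes. Leaving out 1 library gave 0 to 10 (87 to 791 of all genes tested). Among the 55 members, the block changed the calls named in the report and no others. Members higher numbered 0 except with the loess (1) and with the loess and the block (4). Of the 15210 genes in these fits, 2069 and 2490 were higher. None of the 8 called members kept the call in every alternative, while 30 members were lower and 1, ANLN, higher in each one. The median log2 fold change of the members went to -0.085 with quantile normalization, -0.18 with the loess, with or without the block, and -0.14 with arm medians subtracted, and ran from -0.29 to -0.15 with 1 library left out.

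Of the other mitotic genes, the 5 lower became 34 with the block, 27 with the term for replicate 2, 16 with replicates 1 and 3 alone, 23 with the loess and 32 with it and the block, and 3 with quantile normalization, without the trend or with arm medians subtracted; leaving out 1 library gave 0 to 7. The 0 higher became 6 with the block, 5 with the term, 2 with replicates 1 and 3 alone, 7 with the loess, 10 with it and the block, and 0 to 1 with 1 library left out. Over all genes tested, 1951 were higher with the term, 1104 with replicates 1 and 3 alone and 63 to 522 with 1 library left out.

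The sign of a fitted log2 fold change turned in 76 of 1045 values of the members, in 24 members, none of them among the 8 and none beyond 0.165 in size; the cause was not tested. With quantile normalization the values were CCNF 0.012, BUB1B 0.030, TTK 0.030, KNTC1 0.038, CENPF 0.091, PRC1 0.022, HMMR 0.10, NUSAP1 0.090, CKAP2 0.072, TOP2A 0.090, SMC4 0.027. With the loess, and the same with the block, they were BUB1B 0.028, TTK 0.017, KNTC1 0.032, CENPK 0.031, HMMR 0.061, CKAP2 0.072, STAG1 0.0047. With arm medians subtracted they were CDC25C -0.051, AURKB -0.064, KNTC1 0.11, TOP2A 0.085, MKI67 0.16, NCAPD2 0.023, and with replicates 1 and 3 alone CDC25C -0.0039, MKI67 0.0015. With 1 library left out, the ranges were ASPM from -0.10 to 0.29, AURKB from -0.11 to 0.20, BUB1 from -0.030 to 0.15, BUB1B from -0.089 to 0.00092, CCNF from -0.20 to 0.092, CDC25C from -0.031 to 0.087, CENPE from -0.34 to 0.12, CENPF from -0.13 to 0.11, CENPK from -0.32 to 0.10, CENPM from -0.56 to 0.058, CKAP2 from -0.21 to 0.12, HMMR from -0.22 to 0.087, INCENP from -0.30 to 0.018, KNTC1 from -0.13 to 0.075, MKI67 from -0.23 to 0.044, NUF2 from -0.28 to 0.0097, SMC4 from -0.32 to 0.087, SPC25 from -0.0098 to 0.27, STAG1 from -0.16 to 0.043, TOP2A from -0.24 to 0.037, TTK from -0.30 to 0.094.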

Other observations

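The genes of DNA replication, which act in S phase before mitosis, were also mostly negative in log2 fold change. All 53 on the list were tested, and the median was -0.13. A negative log2 fold change was found for 40 (75.5%, against 51.1% of the genes tested). Among genes at or above the lowest of the 55 mitotic genes the share was 60.8%. At an adjusted p up to 0.05, 2 fell (3.77%, against 4.32% of the genes tested) and 2 rose (3.77%, against 2.69%). With the replicate block 21 were lower (39.6%, against 19.7%) and 4 higher (7.55%, against 13.8%). Of the genes at or above the lowest of the 55, 31.5% were then lower and 15.9% higher. Over the 19 alternatives 1 to 21 were lower and 0 to 5 higher. Over all genes, the same alternatives gave 87 to 3156 lower and 63 to 2490 higher. RPA3, the small subunit of the complex that coats single-stranded DNA, was at 26.2, 26.8 and 25.9 FPKM in shControl against 12.4, 12.5 and 14.04 FPKM in shEphexin1, the 1 gene of the list called at 2-fold and an adjusted p of 0.025. For RPA3 the fold change was -1.01 ± 0.105 on the log2 scale (SE, limma adjusted p = 0.00368), just past 2-fold, and 9 of the 19 alternatives called no gene of the list. The value of RPA3 with arm medians subtracted was -0.80 (limma adjusted p = 0.00936). PRIM1, the catalytic subunit of primase, was at 33.6, 35.5 and 34.4 FPKM in shControl against 19.8, 24.6 and 17.8 FPKM in shEphexin1. PRIM1 had a fold change of -0.74 ± 0.137 on the log2 scale (SE, limma adjusted p = 0.0244). With arm medians subtracted, PRIM1 was at -0.61 (limma adjusted p = 0.0550).

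The opposite direction was seen in CCNE1, the cyclin E1 that starts S phase with CDK2, which was at 6.39, 7.15 and 7.201 FPKM in shControl against 12.2, 11.4 and 10.8 FPKM in shEphexin1. In the fit, CCNE1 had a fold change of 0.72 ± 0.119 on the log2 scale (SE, limma adjusted p = 0.0181). With arm medians subtracted, CCNE1 was at 0.70 (limma adjusted p = 0.0242). ORC5, of the origin recognition complex, was at 15.7, 15.5 and 13.6 FPKM in shControl against 22.4, 24.2 and 20.1 FPKM in shEphexin1. For ORC5 the fold change was 0.57 ± 0.121 on the log2 scale (SE, limma adjusted p = 0.0362). It lies on 7q, where the median log2 fold change was 0.30, and its value with arm medians subtracted was 0.24 (limma adjusted p = 0.322). In these 4 genes the groups did not overlap. Whether the replication genes differ from the mitotic genes was not tested.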
